A study of Drosophila melanogaster with 3 samples.

Results

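Transfer RNA (tRNA) genes were examined for peaks of CG17385 in Drosophila melanogaster embryos. They were taken as all genes of biotype tRNA in the Ensembl annotation on the main chromosomes, 290 of 18164 annotated genes. For each gene the nearest peak summit within 500 bp of the gene start was sought in the list kept by the irreproducible discovery rate (IDR), a filter on agreement between replicates, and otherwise in the list from all replicates pooled. The chromatin immunoprecipitation sequencing (ChIP-seq) was done on whole embryos of a mixed-sex collection aged 0 to 24 h, from a transgenic line with GFP at the C-terminus of CG17385. There is 1 group, of 3 biological replicates, and no second genotype, stage or treatment was analysed here. The tag, the transgene and the mixture of all embryonic cell types are therefore common to every value below. The description line of the labels calls the samples an input control, while the assay and antibody labels give a transcription factor ChIP of CG17385. The lists were read as ChIP lists.

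tRNAs carry amino acids to the ribosome, and a genome holds many copies of most tRNA genes, often in clusters. RNA polymerase III transcribes them from a promoter inside the gene. Transcription factor TFIIIC reads its A box and B box and places TFIIIB in front of the gene, and a run of T after the gene ends transcription. A gene name gives the amino acid, the anticodon in DNA letters, a sequence number and a copy number. Of the 290 annotated genes, 270 held an A box, 271 held a B box in either of the forms GTTCGANNC and GTTCAANNC, and 277 had TTTT within 30 bp after the gene end. The second B box form was added after the data were seen, and GTTCGANNC alone was in 160 genes (55.2%).

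The genes below start within 500 bp of IDR summits, most of them strong ones for tRNA genes. Tyr-GTA-1-7, at 442 bp, and Val-CAC-2-5, at 490 bp, are near the edge of that window. The genes are shown because both promoter boxes lie in the transcribed sequence while the summits lie outside it. The sequences are those of the RefSeq genome (Release 6, the build of dm6), written 5′ to 3′ in the transcribed direction. Capitals mark the A box and then the B box.
tRNA:Tyr-GTA-1-8, chr3R:8669081-8669174, minus strand: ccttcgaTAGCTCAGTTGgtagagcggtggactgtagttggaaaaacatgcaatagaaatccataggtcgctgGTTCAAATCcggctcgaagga
tRNA:Tyr-GTA-1-7, chr3R:8668612-8668705, minus strand: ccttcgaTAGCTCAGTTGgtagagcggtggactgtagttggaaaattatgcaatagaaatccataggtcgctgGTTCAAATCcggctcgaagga
tRNA:Gln-CTG-2-3, chr2L:2009538-2009609, plus strand: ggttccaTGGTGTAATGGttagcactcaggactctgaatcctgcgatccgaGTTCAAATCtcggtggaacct
tRNA:Gln-TTG-2-1, chrX:3427452-3427523, minus strand: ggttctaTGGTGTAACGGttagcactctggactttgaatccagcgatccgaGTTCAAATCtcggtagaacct
tRNA:Val-CAC-2-5, chr3R:19672277-19672349, minus strand: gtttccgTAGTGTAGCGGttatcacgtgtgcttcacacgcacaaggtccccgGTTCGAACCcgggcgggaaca
tRNA:Leu-TAA-2-1, chr3R:24112964-24113047, plus strand: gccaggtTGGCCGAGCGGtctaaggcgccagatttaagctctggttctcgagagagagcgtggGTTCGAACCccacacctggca
The pair of tyrosine genes differed at 2 of 94 bases, and the pair of glutamine genes at 6 of 72. Next come the 121 bp centred on 3 of the summits, read on the plus strand, with capitals for the GAGA word GAGAG. They show the sequence under the peaks themselves.
Summit near tRNA:Tyr-GTA-1-8, chr3R:8669315-8669435, plus strand: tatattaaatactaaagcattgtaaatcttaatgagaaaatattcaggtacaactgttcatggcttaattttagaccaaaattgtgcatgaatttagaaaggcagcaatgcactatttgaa
Summit near tRNA:Gln-TTG-2-1, chrX:3427682-3427802, plus strand: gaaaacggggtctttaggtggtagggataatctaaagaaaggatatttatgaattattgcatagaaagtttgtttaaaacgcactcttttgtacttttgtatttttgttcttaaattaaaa
Summit near tRNA:Leu-TAA-2-1, chr3R:24112696-24112816, plus strand: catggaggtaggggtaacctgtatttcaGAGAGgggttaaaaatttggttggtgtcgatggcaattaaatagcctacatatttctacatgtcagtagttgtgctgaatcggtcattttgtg

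The values are peak scores. The authors deposited a signal for each peak on a scale that is not stated, so signals are compared within a list and replicates are compared by rank, with 1 the strongest. The IDR list holds 7588 peaks, and the pooled and replicate lists hold 29999 or 30000 entries each, background included. In replicates 1, 2 and 3, 10674, 8950 and 10037 entries reached a −log10 q of 2. Sequencing depth is unknown from these lists, and no interval that needs it is given. A peak counted as found in another list when a summit there was at most 100 bp away. The 7588 strongest entries of a replicate list, as many as the IDR list holds, are called its top N.

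An IDR summit lay within 500 bp of the start of 22 of the 290 tRNA genes (7.59%). Over all annotated genes the share was 20.8%, and over protein-coding genes 24.2%. Among genes of other biotypes than protein-coding and tRNA it was 9.67%. Where the start lay beyond 500 bp of any protein-coding start, it was 6.96% for those other biotypes and 5.04% for tRNA genes. Of the other small RNA classes, microRNA genes had 6.54% (17 of 260), snoRNA genes 10.8% (29 of 269) and snRNA genes 21.9% (7 of 32). The 22 genes shared 17 distinct peaks and stood in 16 of 174 clusters (9.20%), a cluster being tRNA genes within 1 kb of each other. Counting identical gene sequences once left 18 sequences with an IDR summit among 95. In the replicate lists, 10.3%, 9.31% and 10.7% of tRNA genes had a top-N summit (mean 10.1% ± 0.718, SD, n = 3). Of all bases, 5.12%, 5.23% and 5.18% lay within 500 bp of one (mean 5.18% ± 0.0521, SD, n = 3). The top-N shares over all genes are not given. When an IDR peak also had to have a top-N summit in both of the other replicates, 16 genes were left without replicate 1, 12 without replicate 2 and 11 without replicate 3.

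The pooled list gave another picture. Adding its weaker entries, 154 tRNA genes (53.1%) had a summit within 500 bp, against 41.3% of all annotated genes and 45.2% of protein-coding genes. The share was 26.6% for genes of other biotypes than these, 25.4% for microRNA, 18.2% for snoRNA and 34.4% for snRNA genes. Away from protein-coding starts it was 51.6% for tRNA genes and 22.4% for the other biotypes. So 132 tRNA genes (45.5%) had a pooled summit only, and 136 (46.9%) had neither. In the replicate lists at any rank, 63 tRNA genes had a summit in all replicates, 92 in exactly 2, 60 in exactly 1 and 75 (25.9%) in none. Of the 22 genes with an IDR summit, 18 had one in all replicates and 4 in exactly 2. Any summit within 500 bp of the gene start counts here, also one of a different peak. By the match within 100 bp, 12 of the 17 distinct IDR peaks had a summit of any rank in every replicate. The same counts by replicate over all genes are not given.

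Protein-coding start sites lie close to part of these genes, so the genes were divided by that distance. Of the 32 tRNA genes that start within 500 bp of a protein-coding start, 9 (28.1%) had an IDR summit, and of the 258 others, 13 (5.04%). Bases within 500 bp of a protein-coding start were within reach of an IDR summit in 19.4% of cases, and the other bases in 3.38%. In replicates 1, 2 and 3, 28.1%, 25.0% and 28.1% of the near genes had a top-N summit (mean 27.1% ± 1.80, SD, n = 3). Of the genes away, 8.14%, 7.36% and 8.53% had one (8.01% ± 0.592, SD, n = 3). Bases differed in the same direction. On average over the same top-N lists, 19.6% of near bases and 3.32% of bases away were within 500 bp of a summit. The near share of tRNA genes exceeded their away share in 3 of 3 replicates, by 19.1 points ± 1.26 (SD, n = 3). That difference is not corrected for the one between bases. An exact 2-sided sign-flip permutation test over the replicates gave p = 0.25, which is the smallest p that 3 replicates allow.

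The whole replicate lists, which hold many weak entries, were high at tRNA genes away from protein-coding starts as well. There 53.9%, 39.5% and 50.0% of the 258 genes had a summit in replicates 1, 2 and 3 (mean 47.8% ± 7.42, SD, n = 3). The bases of the same places were within 500 bp of a summit in 14.9%, 16.5% and 15.3% of cases (15.6% ± 0.816, SD, n = 3). The difference was 32.2 points ± 8.23 (SD, n = 3), positive in 3 of 3 replicates, with the same smallest exact permutation p of 0.25. Replicate 2 gave the lowest share of genes and the highest share of bases. In the top N the difference was 4.69 points ± 0.783 (SD, n = 3, exact p = 0.25). Single genes, with no other tRNA gene within 1 kb, had a summit in 37.8% of cases on average over the replicates, 22.3 points ± 4.76 above the bases (SD, n = 3, 96 genes). In the pooled list 133 of the 258 genes (51.6%) and 37 of the 96 single genes (38.5%) had a summit, where bases had 15.6%. The measure against bases was chosen after the data were seen, and it counts all bases, repeats included.

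**Figure D1:**
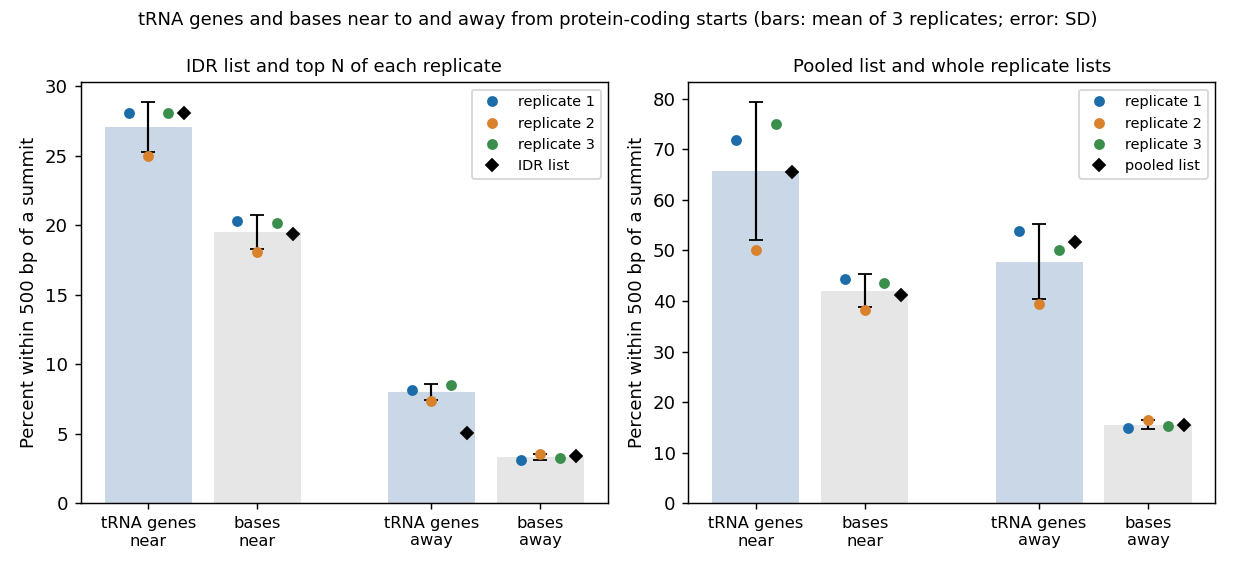
Percent of tRNA genes, and of bases of the same places, within 500 bp of a summit (y axis), for places near to (within 500 bp) and away from protein-coding starts. Bars are means of 3 replicates with the SD, dots are replicates and diamonds the IDR or pooled list. On the left, in the top N, near genes sit at 25.0% to 28.1% and genes away at 7.36% to 8.53%. On the right, in the whole lists, genes away sit at 39.5% to 53.9% and bases at 14.9% to 16.5%.

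The density of summits by distance from the tRNA gene start differed between the replicates and between clustered and single genes. Around the 258 genes away from protein-coding starts, the pooled list had 13.6 to 14.3 summits per 100 genes in each 200 bp bin within 400 bp of the start, against 4.65 to 9.30 per bin 2000 to 3000 bp away. The mean over the genome was 4.48 per 100 bins. The same 4 bins held 12.4 to 16.7 in replicate 1, 7.36 to 10.5 in replicate 2 and 11.6 to 15.9 in replicate 3. In replicate 2 these bins stood below its own bins at -600 to -400 bp (11.6). The IDR list had 0 to 1.55 per bin within 400 bp and at most 2.71 in any bin, with a genome mean of 1.13. Clustered genes count the same summit more than once in these densities. Around the 96 single genes the pooled list had 6.25 to 12.5 in the bins within 400 bp, and as many as 12.5 at -1000 to -800 bp and 10.4 at -2400 to -2200 bp. There replicate 1 had 7.29 to 13.5, replicate 2 5.21 to 9.38 and replicate 3 6.25 to 14.6 within 400 bp, where replicate 3 also had 12.5 at -1000 to -800 bp and replicate 2 had 11.5 at 2000 to 2200 bp. The pooled summits of single genes were thus not densest at the start alone.

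**Figure D2:**
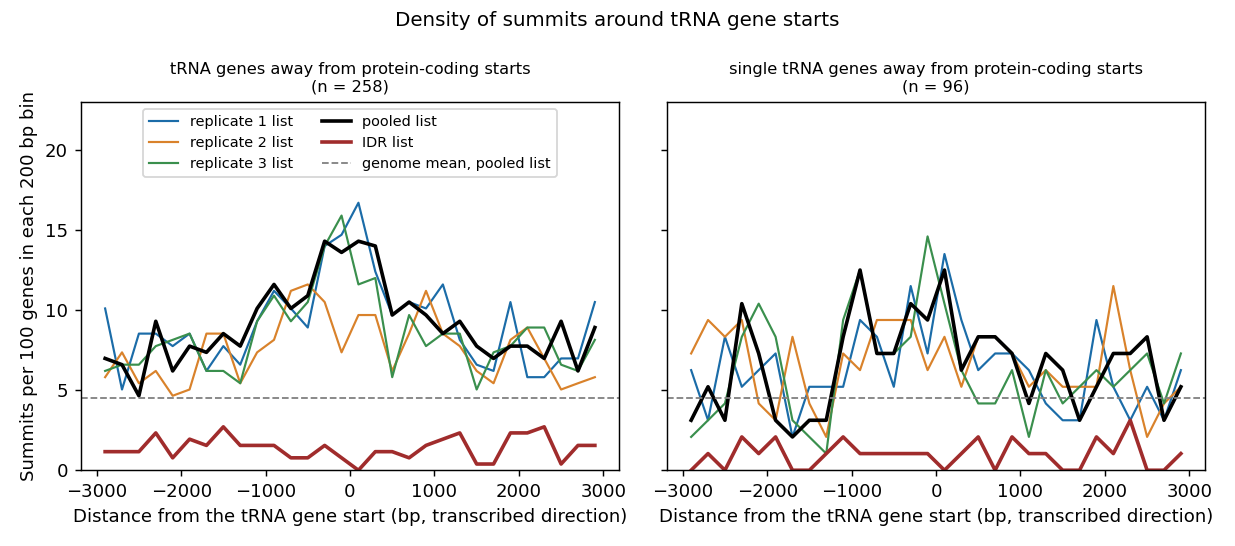
Summits per 100 genes in each 200 bp bin (y axis) by distance from the tRNA gene start (x axis, bp, transcribed direction), for the 258 genes away from protein-coding starts on the left and the 96 single genes among them on the right. Lines are the replicate, pooled and IDR lists, and the dashed line is the genome mean of the pooled list (4.48). On the left the pooled line reaches 14.3 near the start, and the IDR line stays at or below 2.71 throughout. On the right the pooled line reaches 12.5 both just after the start and at -1000 to -800 bp.

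Of the 154 pooled summits taken for tRNA genes, 53 (34.4%) lay within 100 bp of the gene start and 79 (51.3%) within 200 bp, and 27 lay inside the gene. An even spread over the window would give 20.1% and 40.1%, but the nearest summit was taken, which favours short distances where a window holds more than 1. The share within 100 bp was 31.5%, 22.9% and 25.5% in replicates 1, 2 and 3. Summits lay upstream of the start at 78 genes and downstream of it at 76. No IDR summit lay inside a tRNA gene, and the peak interval itself overlapped a tRNA gene in 6 cases. A tRNA gene fills a small part of the window, so an even spread would put few IDR summits inside. The labels give sonication to 200 to 800 bp, longer than a tRNA gene. Repeated sequence within the genes also limits where reads can be placed, as described below. None of these was tested as a reason for the place of an IDR or pooled summit. Val-CAC-2-5, at 490 bp from its summit, was the last gene inside the window, and Gly-GCC-1-9, 518 bp from the peak of Trp-CCA-2-2 (signal 604), the first outside.

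The 17 IDR peaks at tRNA genes had signals from 162 to 1748, with a median of 321, and all IDR peaks had a median of 294. For 11 of the 17 (64.7%) a protein-coding start lay at most 500 bp from the summit, as for 45.9% of all IDR peaks. Those 11 had a median signal of 405, and the 6 others 316, between 185 and 637. Over all IDR peaks the medians were 332 within 500 bp of a protein-coding start and 267 beyond. A top-N summit in every replicate was found for 8 of the 17 (47.1%), against 62.8% of all IDR peaks. Of these 8, 6 were within 500 bp of a protein-coding start and 2 beyond.

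**Figure D3:**
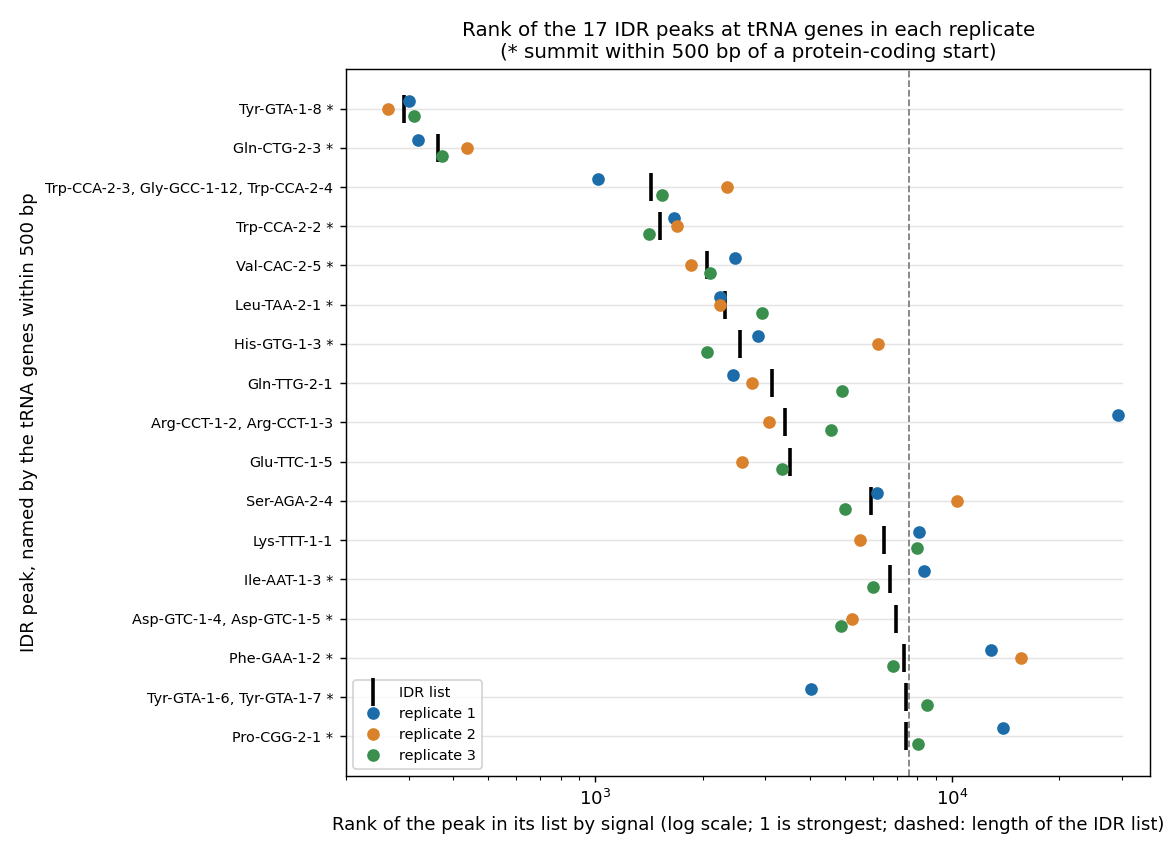
Rank of each of the 17 IDR peaks at tRNA genes (x axis, log scale, 1 strongest) in the IDR list (black bars) and in each replicate (dots, left out where no summit matched). Peaks are in the order of their IDR rank, asterisks mark summits within 500 bp of a protein-coding start, and the dashed line is the length of the IDR list (7588). The upper 8 peaks have all replicates left of the dashed line, and the lower 9 do not.

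The strongest peak was that of tRNA:Tyr-GTA-1-8 (FBgn0012024), in a cluster of 3 tyrosine tRNA genes in an intron shared by p, which encodes a subunit of a lysosome biogenesis complex, and CG8036. Its summit at chromosome 3R 8669375 lay 201 bp upstream of the tRNA start and 243 bp from a start of CG8036, with a signal of 1748 and rank 291 in the IDR list. The peak had signals of 553, 475 and 724 and ranks of 301, 263 and 311 in replicates 1, 2 and 3, so its ranks were close together. The other genes of the cluster, Tyr-GTA-1-6 and Tyr-GTA-1-7, shared a much weaker peak (signal 163) that ranked 4033 in replicate 1 and 8509 in replicate 3 and had no match in replicate 2. Tyr-GTA-1-8 and Tyr-GTA-1-7, printed above, differed at 2 of 94 bases. The weak summit lay 442 bp from the start of Tyr-GTA-1-7 and 55 bp from that of Tyr-GTA-1-6, which is not printed. The part of the tRNA sequence in these signals was not tested.

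Next was Gln-CTG-2-3 (FBgn0051944), a glutamine tRNA gene in intergenic sequence on chromosome 2L. Its summit at 2009861 lay 323 bp downstream of the tRNA start and 2 bp from the start of CG4238, in the untranslated region of that gene, with a signal of 1571. The ranks were 318, 437 and 372 in replicates 1, 2 and 3, from signals of 540, 371 and 667. The other gene of its cluster, Gln-CTG-2-2, was 706 bp from the same summit. The peaks of Tyr-GTA-1-8 and Gln-CTG-2-3 were the only IDR peaks at tRNA genes with a signal above 637, and both lay within 500 bp of a protein-coding start.

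Tryptophan tRNA genes had the next 2 peaks, both on chromosome 2R. Trp-CCA-2-3, Gly-GCC-1-12 and Trp-CCA-2-4 form a cluster and shared 1 intergenic peak (summit 21161216, signal 637), 671 bp from the start of CG30389. Its ranks in replicates 1, 2 and 3 were 1016, 2347 and 1543, and it was the strongest IDR peak at tRNA genes beyond 500 bp of a protein-coding start. Trp-CCA-2-2 had a summit at 18639278 with a signal of 604, which lay 8 bp from the start of CG30122 and 279 bp upstream of the tRNA start. Its ranks of 1663, 1696 and 1415 lay closer together than those of the shared peak.

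Val-CAC-2-5, in an intron of Naam, which encodes a nicotinamide amidase, had a summit at 3R 19671859 with a signal of 477 and ranks of 2465, 1859 and 2104. This summit lay 409 bp from a start of Naam. Leu-TAA-2-1, an intergenic leucine tRNA gene, had a summit at 3R 24112756, 367 bp from the start of CG13605, with a signal of 438 and ranks of 2242, 2244 and 2939. His-GTG-1-3 had a summit at 2R 12335220, 96 bp from the start of CG8490, with a signal of 405. Its ranks were spread more widely, at 2851, 6219 and 2056 in replicates 1, 2 and 3.

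The glutamine gene Gln-TTG-2-1 had a peak far from protein-coding starts that stood in the top N of all replicates. It lies in an intron of CG12535 on X, and its summit at 3427742 was 219 bp upstream of the tRNA start and 8065 bp from the nearest protein-coding start, that of CG14269. The signal was 343 and the ranks were 2427, 2746 and 4912. With the peak shared by Trp-CCA-2-3, Gly-GCC-1-12 and Trp-CCA-2-4 it was 1 of the 2 peaks beyond 500 bp of a protein-coding start that stood in the top N of all replicates.

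None of the other peaks beyond 500 bp of a protein-coding start stood in the top N of all replicates. Arg-CCT-1-2 and Arg-CCT-1-3 shared a summit at 2R 20000596 (signal 321), 4407 bp from the nearest protein-coding start, that ranked 3075 and 4590 in replicates 2 and 3 but 29238 in replicate 1. Glu-TTC-1-5 had a summit at 2R 19727234 (signal 311), 13158 bp from one, that ranked 2577 and 3348 in replicates 2 and 3 and had no match in replicate 1. Both were thus weak or without a match in the same replicate. Ser-AGA-2-4 (signal 200), 707 bp from the start of CG31698, ranked 6172, 10304 and 4997. Lys-TTT-1-1 (signal 185), in an intron of the tyrosine kinase gene Btk, ranked 8080, 5515 and 8002. The peaks of Ser-AGA-2-4 and Lys-TTT-1-1 thus had a match in every replicate, on both sides of the top-N cut of 7588.

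The last 5 IDR peaks lay within 500 bp of protein-coding starts and had signals from 162 to 179, where the IDR list ends at 160. Ile-AAT-1-3 (179) is in an intron of ATP8A, which encodes a phospholipid flippase. Asp-GTC-1-4 and Asp-GTC-1-5 (173) share a summit 86 bp from the start of Sema1a, a gene of axon guidance. The peak of Phe-GAA-1-2 (165) lay 155 bp from the start of the ribosomal protein gene RpL17, and that of Pro-CGG-2-1 (162) 127 bp from a start of Bx, which encodes a LIM-only protein. The weak tyrosine peak above is the fifth. None of these 5 had a top-N summit in every replicate, and 4 of them had no match at any rank in replicate 1 or replicate 2.

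The peaks of the pooled list at the 132 tRNA genes without an IDR summit were weak. There were 100 distinct ones, with signals of 41.7 to 157 and a median of 67.5, where pooled entries ranked below the length of the IDR list had a median of 65.6. Their −log10 q ran from 0.301 to 3.08 with a median of 0.842, and 13 of the 100 had a value of at least 2. The strongest was shared by Ser-CGA-1-4, Val-AAC-2-1 and Val-AAC-2-2 (signal 157), 3388 bp from the nearest protein-coding start, and ranked 8245 and 6730 in replicates 1 and 3 with no match in replicate 2. Then came the peak of Ile-AAT-1-4 and Ile-AAT-1-5 (156), with ranks of 7900 and 9363 in replicates 1 and 2, and those of Thr-AGT-1-2 (154) and Thr-AGT-1-4 (152). Thr-AGT-1-4, with ranks of 6805, 8563 and 12474, was the only 1 of the 5 strongest with a match in every replicate. Cys-GCA-1-1 and Cys-GCA-1-2 (146) ranked 4300 in replicate 2 and 15268 in replicate 3.

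By amino acid, IDR summits were spread over 15 of 22 kinds of tRNA. Tryptophan genes had the highest share (3 of 8, from 2 peaks), then tyrosine (3 of 10, from 2 peaks) and histidine (1 of 5). Glutamine had 2 of 12, aspartate 2 of 14 and arginine, the largest group, 2 of 26. None of the 17 alanine, 17 threonine, 10 asparagine, 7 cysteine, 6 elongator methionine or 6 initiator methionine genes had one, nor did the selenocysteine gene. These are small counts of genes that share peaks and clusters. In the top N, tryptophan genes had 3, 3 and 2 summits in replicates 1, 2 and 3, and cysteine genes, with none in the IDR list, had 2, 3 and 0.

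In the pooled list the order was different. Isoleucine genes had a summit in 10 of 11 cases, serine genes in 16 of 20 and asparagine genes in 7 of 10, and elongator methionine genes in 1 of 6. Of the isoleucine genes, 5 stand in 1 cluster, described below.

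**Figure D4:**
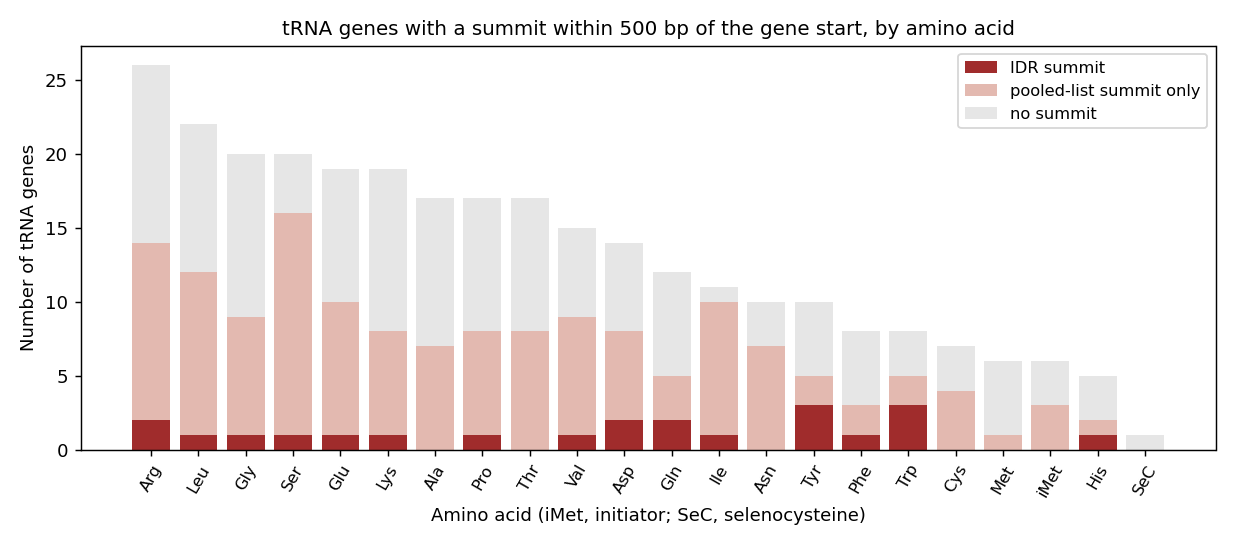
Number of tRNA genes (y axis) for each amino acid (x axis), divided into genes with an IDR summit within 500 bp of the start, genes with a pooled-list summit only and genes with none. Tryptophan and tyrosine have 3 genes each with an IDR summit, and 10 of 11 isoleucine and 16 of 20 serine genes have a summit in the pooled list, 1 gene of each also in the IDR list.

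Chromosome 3L had no IDR summit at its 48 tRNA genes, and 39.6% of them had a pooled summit. Its replicate top-N lists had 3, 4 and 2 such genes. Chromosome 2R had 9 of 98 genes with an IDR summit, 3R 5 of 79, 2L 5 of 41 and X 3 of 24. The share over all tRNA genes was 7.59%, so these are small counts, and genes share peaks. The share of all annotated genes on each chromosome is not given here. Of the 156 intergenic tRNA genes 14 (8.97%) had an IDR summit, of the 127 in introns 8 (6.30%), and of the 7 that overlap an untranslated region none. The pooled shares of intergenic and intronic genes were 51.9% and 55.1%.

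Clusters with more genes had a pooled summit more often, and they also offer more positions at which a summit counts. Of 105 single genes 43 (41.0%) had one, of 43 clusters of 2 genes 28 (65.1%), of 21 clusters of 3 to 4 genes 18 (85.7%), and all 5 clusters of 5 or more. Per gene the shares were 41.0%, 54.7%, 61.8% and 71.0%. IDR summits stood in 7, 4, 4 and 1 clusters of these sizes.

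Of the 5 largest clusters, that with 5 isoleucine and 2 leucine genes, on 2R, had pooled summits at all 7 genes. The nearest pooled summits came from 4 peaks with a highest signal of 156, and the IDR peak of Ile-AAT-1-3 (179) lay farther from that gene than the nearest of these. The 6 cysteine and lysine genes on 3L had pooled summits at all 6 genes from 4 peaks, with a highest signal of 146 and no IDR peak. The asparagine and arginine cluster on 3R had them at 4 of 6 genes (highest signal 83.5) and the asparagine, arginine and lysine cluster on 2R at 3 of 5 (93.3). The arginine and serine cluster on X had 2 of 7 (62.3). The largest clusters thus differed among themselves, from 2 of 7 to 7 of 7 genes.

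The promoter boxes were present in most genes of every class. The A box was in 21 of 22 genes with an IDR summit, 125 of 132 with a pooled summit only and 124 of 136 with none. The B box in either form was in 22, 124 and 125 of them, and TTTT after the gene in 21, 126 and 130. The form GTTCGANNC alone was in 9 of 22 (40.9%), 85 of 132 (64.4%) and 66 of 136 (48.5%), so its share was highest in the middle class. No test was made, since genes with 1 sequence are copies of each other.

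Motifs of embryonic promoters were searched on both strands of windows of 201 bp around a summit or start. The DRE word TATCGATA was at 1 of the 17 IDR summits at tRNA genes, that of Trp-CCA-2-2, and at 2.62% of all IDR summits and 7.84% of protein-coding starts. GAGAG was at 3 of the 17, those of Gln-CTG-2-3, Val-CAC-2-5 and Leu-TAA-2-1, and at 28.3% of all IDR summits and 22.5% of protein-coding starts. The Motif 1 core GGTCACAC was at none of the 17, at 1.77% of IDR summits and at 6.76% of protein-coding starts. A match is a run of letters and not a measured site. Around the tRNA starts themselves GAGAG was in 97 of 290 windows, with 6 of 22, 47 of 132 and 44 of 136 in the classes with an IDR summit, a pooled summit only and none.

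tRNA genes are repeated, which limits where short reads can be placed. Of the 290 genes 238 had the sequence of at least 1 other tRNA gene, and the largest set had 13 copies. Within the genes, the median share of 36-base words that occur once on the main chromosomes was 0%. Within 250 bp of the gene start, where most of the bases are flank, it was 90.6%, with medians of 90.8%, 90.3% and 90.7% for genes with an IDR summit, a pooled summit only and none. Fewer than 50% of these words occurred once at 7 genes, all without an IDR or pooled summit. The part of read placement in the shares above was not tested.

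The other genes of RNA polymerase III were read from lists chosen by symbol. None of the 100 5S rRNA genes, which form a repeat array, had an IDR or pooled summit. Of 10 genes of U6, U6atac, 7SK, 7SL, RNase P and RNase MRP RNA, 3 had an IDR summit and 5 a pooled one. snRNA:7SKa, whose RNA restrains the elongation factor P-TEFb, had a signal of 204, and snRNA:U6:96Ab and snRNA:U6:96Ac, copies of the U6 spliceosomal RNA gene, shared a peak of 198.

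The strongest peaks at protein genes of the machinery exceeded the strongest at tRNA genes. Of 18 genes of the RNA polymerase III machinery 8 (44.4%) had an IDR summit, and of 21 tRNA processing genes 10 (47.6%), where all protein-coding genes had 24.2%. Brf, a TFIIIB subunit, had a signal of 2583 with ranks of 123 and 85 in replicates 1 and 2, and Polr3F, a subunit of the polymerase, 2090 with ranks of 190 and 134. Bdp1, another TFIIIB subunit, had 1230, and Polr1C, a subunit shared by polymerases I and III, 949. Among the processing genes Trmt61, of the enzyme that methylates an adenosine of tRNA, had 2545, the tRNA cytosine methyltransferase gene Mt2 had 2296, the methyltransferase partner gene Trmt112 had 2034 and Rpp14a 439. Of the machinery genes, Polr3A and Polr3B, the largest subunits, the repressor gene Maf1, Trf, Polr3I and Polr3K had no summit in either list. Tbp had a pooled summit only, with a signal of 60.4. For 5 of the genes named, Brf, Polr3F, Trmt61, Mt2 and Trmt112, the signal was higher than the 1748 of the strongest tRNA peak.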

How the data were processed

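CG17385 ChIP-seq was read from the authors' deposited peak lists on dm6. According to the deposited text descriptions, each replicate list came from that replicate's alignment and 1 further file common to all replicates, the pooled list from all 3 alignments and that file, and the IDR list from these lists. The peak signal, a score of unstated scale, and the −log10 of the q-value were deposited by the authors. The p-value column holds none. Not given in the sources used here were the aligner, the caller, its version and the threshold on IDR. Depth is unknown, and replicate numbers come from the labels.

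From these lists, Python 3.11.15 with numpy 2.4.6, pandas 2.3.3 and matplotlib 3.10.9 assigned to each tRNA gene (Ensembl release 115; transposable elements left out) the nearest summit within 500 bp of its start. tRNA genes within 1 kb formed a cluster. The assignment was tested on simulated summits. No peak lay past a chromosome end of the RefSeq Release 6 sequence. With 1 group, counts are given beside the same counts over other genes, and the only test is an exact sign-flip permutation test over the 3 replicates. Genes, copies and neighbours share sequence and peaks and are not replicates. When all 3 replicates have the same sign the exact p is 0.25 whatever their spread, so it reflects agreement in sign only. The replicate lists also share 1 input file. Word uniqueness used 36-base words on both strands. The text names every IDR peak at a tRNA gene, the 5 strongest pooled peaks outside the IDR list, clusters of 5 or more genes, and up to 4 members of other lists with the strongest IDR peaks. Tbp, the machinery genes without a summit, and the genes at the window's edge, were named after their values were seen. Members, lists and tests were chosen with earlier results of these data known. Alternatives were windows of 250 and 1000 bp, overlap of the peak with the gene, the more strongly ranked part of the list, other cluster distances and match distances, and each replicate left out.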

Additional observations from a re-analysis of the deposited data

How the results depend on the processing

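Of 65 alternative values over 9 results, 34 stayed within 1.5 times of the reported count, on the same side of the threshold or within the spread, 31 moved and 0 reversed. With a 250 bp window the tRNA genes with an IDR summit numbered 12 in place of 22, those with a pooled summit 99 in place of 154, the clusters with an IDR summit 9 in place of 16, and the distinct peaks in the top N of all replicates 5 in place of 8. With 1000 bp the IDR genes were 38, the clusters 26 and those peaks 14. A narrower or wider window takes in fewer or more summits by construction. When the peak interval had to overlap the gene, 6 genes in 6 clusters had an IDR peak and 93 a pooled one. Of these 6, 3 had no protein-coding start within reach of the gene, 3 had a summit beyond reach of one, 1 peak was in the top N of every replicate, and the median signal was 182 in place of 321. The stronger part of the IDR list, its upper 50 percent by rank, left 14 genes, 8 of them away from protein-coding starts, with a median signal of 477. Leaving out each replicate in turn gave 11 to 16 IDR genes, 9 to 12 clusters, 5 to 9 IDR genes away from protein-coding starts in place of 13, 4 to 7 genes with a summit beyond 500 bp of one in place of 9, and a median signal of 457 to 604. These values require a top-N summit in both other replicates, which removes weak peaks by construction. The near minus away difference, 19.1 points, was 7.97 to 23.1 points over all its alternatives. Its alternatives counted as unchanged unless the sign turned, because the threshold on p lies below the smallest p that 3 replicates allow. Its part of the 34 therefore says nothing about the size of that difference. In alternatives chosen after seeing the data, the excess of tRNA genes over bases away from protein-coding starts, 32.2 points, was 22.1 with a 250 bp window, 22.3 for single genes, 4.69 in the top N and 28.8 to 36.8 with a replicate left out. No paired analysis was possible because there is 1 group. Unknown depth and repeated tRNA sequence limit what the absence of a summit shows.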
